A study of Mus musculus with 12 samples.

Results

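The data described here are the transcript levels of mouse liver taken 48 h after a single injection of thioacetamide, set against control liver. The members are 4 of the 12 libraries of the series, 2 from livers at 48 h and 2 from control livers, chosen by their titles, and all 41128 genes of the count table except 58 pancreatic acinar genes, of which 13457 had enough counts to be tested. Thioacetamide is a hepatotoxin given here by intraperitoneal injection; its dose, and what the controls received, are not stated in the labels. All mice carried the label CD-1 IGS, an outbred stock, and an age of 8 weeks, with no engineered allele named. A further 2 libraries from livers at 24 h shared the same controls and stock and are used for comparison. The libraries were made from polyadenylated RNA with a stranded kit. The labels call every library purified hepatocytes, while the series design calls these 6 livers, and no label says that libraries of a group came from different animals, so p-values measure the spread between libraries, which may be technical.

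Cytochrome P450 enzymes and flavin monooxygenases of hepatocytes oxidise thioacetamide to reactive products, and because Cyp2e1 is concentrated around the central vein, pericentral hepatocytes die first. The liver then replaces the lost cells: surviving hepatocytes enter the cell cycle, pass S phase and divide, while macrophages clear debris and stellate cells lay down a provisional matrix. YAP and TAZ, the effectors of the Hippo growth-control pathway named in the title of the series, act through TEAD factors on genes of growth, adhesion and matrix.

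At 48 h the livers held more transcript of genes of DNA replication, mitosis, macrophages, matrix and the cytoskeleton than control livers, and less of genes of hepatocyte metabolism, blood protein secretion and cholesterol synthesis. Of 13457 genes tested, 3400 (25.3%) rose and 3285 (24.4%) fell, together 49.7%, with the threshold at 0.05 for the p of edgeR's quasi-likelihood F test after Benjamini-Hochberg adjustment. Every adjusted p below comes from that test. The median log2 change of all genes was -0.04. Levels are CPM (counts scaled to a common library size) with TMM factors, a change is a log2 difference of 48 h minus control ± its standard error, and each group holds 2 libraries, with replicate 1 given before replicate 2. A list's count is read against those 2 shares, and a gene is said to have risen or fallen only if it passed. Where 5 or fewer members of a list are named for going one way or not passing, they were chosen after their values were seen.

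**Figure D1:**
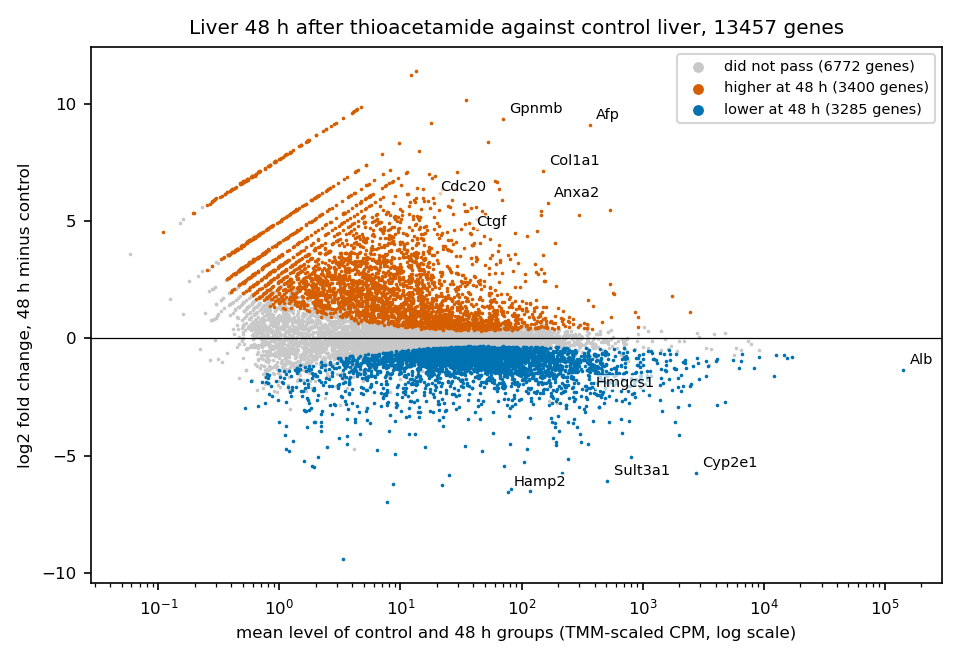
Log2 fold change of 48 h minus control (vertical axis) against the mean of the group levels in TMM-scaled CPM (horizontal axis, log scale) for the 13457 genes tested, 1 point a gene, coloured by its call. Gpnmb, Afp and Col1a1 lie above 7 on the vertical axis and Cyp2e1, Sult3a1 and Hamp2 below -5; the slanting rows of points on the left are genes with a handful of counts in 1 group.

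The split between higher and lower calls depended on scaling. Higher genes made up 50.9% of the calls with TMM factors, 62.8% with upper-quartile factors and 88.7% with library totals alone, which moved the median of all genes by 0.17 and 0.72. With library totals alone 57.8% of all genes rose and 7.35% fell, and list counts given for that scaling are read against these shares. Directions below are relative to the median of all genes, and those that turn with scaling are named. The share was 61.9% with all 12 libraries of the series in 1 fit and 64.2% among changes of at least 2-fold.

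Total counts ran from 9640845 to 13692235 over the 6 liver libraries, in which 3 counts, taken as the floor of detection for counting error only, correspond to between 0.201 and 0.311 CPM. Acinar transcripts took between 45.5 and 20074 RPM (raw counts scaled to a common library total, without TMM factors) and were left out before library sizes were set. The Y-linked genes Ddx3y and Eif2s3y had no read in any of the 6. Albumin (Alb), the main secreted protein of hepatocytes, took 15.2% to 15.4% of counts in control and 9.63% to 9.83% in 48 h libraries. Markers of other liver cells were also read in the control libraries, among them the Kupffer cell gene Clec4f at 58.7 and 30.4 CPM and the sinusoidal endothelial gene Stab2 at 45.9 and 54.96 CPM. In such bulk RNA, fewer cells of a type and less RNA per cell cannot be told apart.

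**Figure D2:**
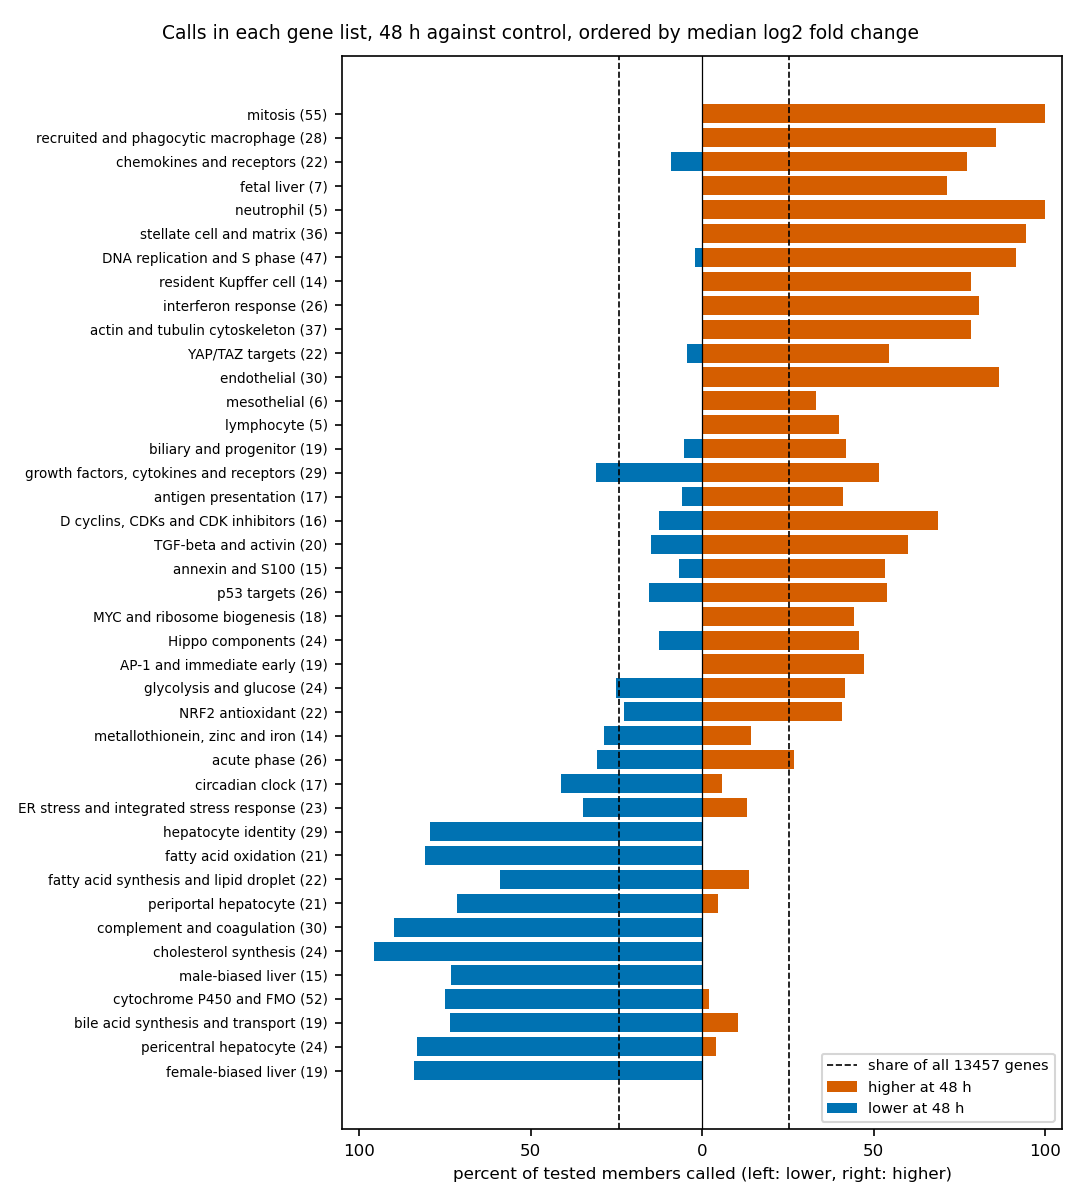
Percent of the tested members of each gene list (number tested in brackets) that were higher (right) or lower (left) at 48 h than in control liver, ordered by the list's median log2 fold change, with dashed lines at the shares of all 13457 genes, 25.3% and 24.4%. Mitosis, matrix and macrophage lists reach far beyond the right line, and cholesterol synthesis, coagulation, cytochrome P450 and sex-biased lists far beyond the left one.

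Genes of DNA replication were raised at 48 h as a group. Of 47 S phase genes, 43 rose and 1 fell (Mcm10, a helicase loading partner, at -1.08 ± 0.21), with a median of 2.64. The call on Mcm10 was lost with all 12 libraries in 1 fit and with library totals alone (adjusted p = 0.235 and 0.177), which gave 46 genes that rose and none that fell. Mcm6, a subunit of the helicase that opens replication origins, stood at 6.54 and 4.34 CPM in controls, 64.3 and 37.2 CPM at 24 h and 111 and 96.4 CPM at 48 h, a change of 4.25 ± 0.32, adjusted p = 0.000166. Mcm5, another subunit, stood at 2.07 and 1.01 CPM in controls and 76.7 and 57.7 CPM at 48 h (5.44 ± 0.56, adjusted p = 0.000376). For both genes every 48 h library lay above every control library. Pcna, the clamp that holds polymerases on DNA, had a change of 1.89 ± 0.27 from a control level of 13.2 and 18.5 CPM. E2f1, a transcription factor of the replication programme, rose by 2.76 ± 0.39, and Uhrf1, which passes on DNA methylation, by 6.999 ± 0.71 to 33.3 and 34.6 CPM. Rrm2, which makes deoxynucleotides, went from 2.49 and 1.92 CPM in controls to 17.2 and 8.02 CPM at 24 h and 82.6 and 48.6 CPM at 48 h.

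Mitosis genes had a median change of 5.41, the highest of the lists with more than 5 tested members, and all 55 of them rose. Cdc20, the activator of the anaphase-promoting complex, stood at 1.04 and 0.101 CPM in controls, 1.33 and 0.968 CPM at 24 h and 51.8 and 21.9 CPM at 48 h (6.002 ± 0.69, adjusted p = 0.000561). Cyclin B1 (Ccnb1), the partner of Cdk1 at entry into mitosis, stood at 0.726 and 0.101, 1.26 and 1.11 and 36.00 and 16.8 CPM in the same order (5.97 ± 0.63, adjusted p = 0.000413). Foxm1, the factor that switches on many mitosis genes, went from 0.415 and 0.504 CPM in controls to 2.44 and 1.73 CPM at 24 h and 37.3 and 22.7 CPM at 48 h (5.99 ± 0.41, adjusted p = 0.000130). In all 3 genes the 48 h libraries stood far above the other 4, and replicate 1 at 48 h lay above replicate 2. The proliferation marker Mki67 reached 171 and 78.2 CPM, Top2a, which untangles DNA, 168 and 89.4 CPM and the mitotic kinase gene Plk1 39.98 and 17.4 CPM. Summed over the list, mitosis transcripts took 62.4 and 42.2 RPM in controls, 224 and 154 at 24 h, and 2597 and 1365 at 48 h. Leaving out 1 library moved these sizes. Without control replicate 1 the changes were 8.34 for Cdc20, 7.86 for Ccnb1, 7.04 for Plk1, 7.92 for Top2a and 10.10 for Mki67, and without control replicate 2 they were 5.09, 5.11, 4.73, 5.58 and 5.65. Without 48 h replicate 1 those of Cdc20, Ccnb1, Plk1 and Mki67 were 5.26, 5.33, 4.80 and 5.98. Which cells held these transcripts was not tested. In the same libraries 24 of 28 macrophage genes and 34 of 36 stellate cell and matrix genes rose. Summed over all members, the macrophage list took 905 and 668 RPM in controls and 3960.4 and 3285 at 48 h. The stellate cell and matrix list took 3009 and 3024 RPM in controls and 8364 and 10167 at 48 h.

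E2F factors and the complexes that switch mitosis genes on are known to act through short promoter sequences, and examples from RefSeq (GRCm38.p6), 200 bases up to the transcription start, are shown because replication and mitosis genes were among those that rose most. Capitals mark a CHR (TTTGAA or TTCGAA) or a CCAAT box (CCAAT) in the mitosis promoters and an E2F motif (TTTCCCGC, TTTGGCGC or TTCGCGC) in the replication promoters, on either strand, with overlapping E2F matches run together. The Cdc20 window is chr4:118437344-118437543, minus strand, that of Ccnb1 chr13:100786487-100786686, minus strand, that of Mcm6 chr1:128359706-128359905, minus strand, and that of Mcm5 chr8:75109309-75109508, plus strand.
Cdc20: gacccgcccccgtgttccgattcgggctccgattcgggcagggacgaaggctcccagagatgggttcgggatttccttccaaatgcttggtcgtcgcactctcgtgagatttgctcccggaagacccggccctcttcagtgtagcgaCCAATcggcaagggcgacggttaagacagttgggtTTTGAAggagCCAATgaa
Ccnb1: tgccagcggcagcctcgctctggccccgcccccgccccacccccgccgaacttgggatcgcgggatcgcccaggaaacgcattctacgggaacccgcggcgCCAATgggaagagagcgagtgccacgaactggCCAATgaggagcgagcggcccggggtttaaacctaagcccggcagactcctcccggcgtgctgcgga
Mcm6: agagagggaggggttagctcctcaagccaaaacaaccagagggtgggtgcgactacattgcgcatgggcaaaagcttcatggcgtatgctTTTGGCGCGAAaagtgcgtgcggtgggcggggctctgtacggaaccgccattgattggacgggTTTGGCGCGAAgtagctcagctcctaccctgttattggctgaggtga
Mcm5: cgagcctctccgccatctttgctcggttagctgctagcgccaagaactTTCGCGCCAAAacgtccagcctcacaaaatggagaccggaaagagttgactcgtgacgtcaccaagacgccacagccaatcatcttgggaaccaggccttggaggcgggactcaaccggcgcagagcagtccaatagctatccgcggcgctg
The Ccnb1 window held no CHR, and neither did the 200 bases before the start of Plk1, which held 1 CCAAT box. In the 250 bases before the start, a CHR was found in 41.3% of 46 mitosis promoters, 18.6% of 43 replication promoters and 17.1% of all 32851 promoters of the table. A CCAAT box was found in 76.1%, 60.5% and 33.8%, and an E2F motif in 10.9%, 25.6% and 2.54%, in the same order. These promoters belong to 44 of the 55 mitosis and 37 of the 47 replication genes, and a match describes letters, not binding.

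**Figure D3:**
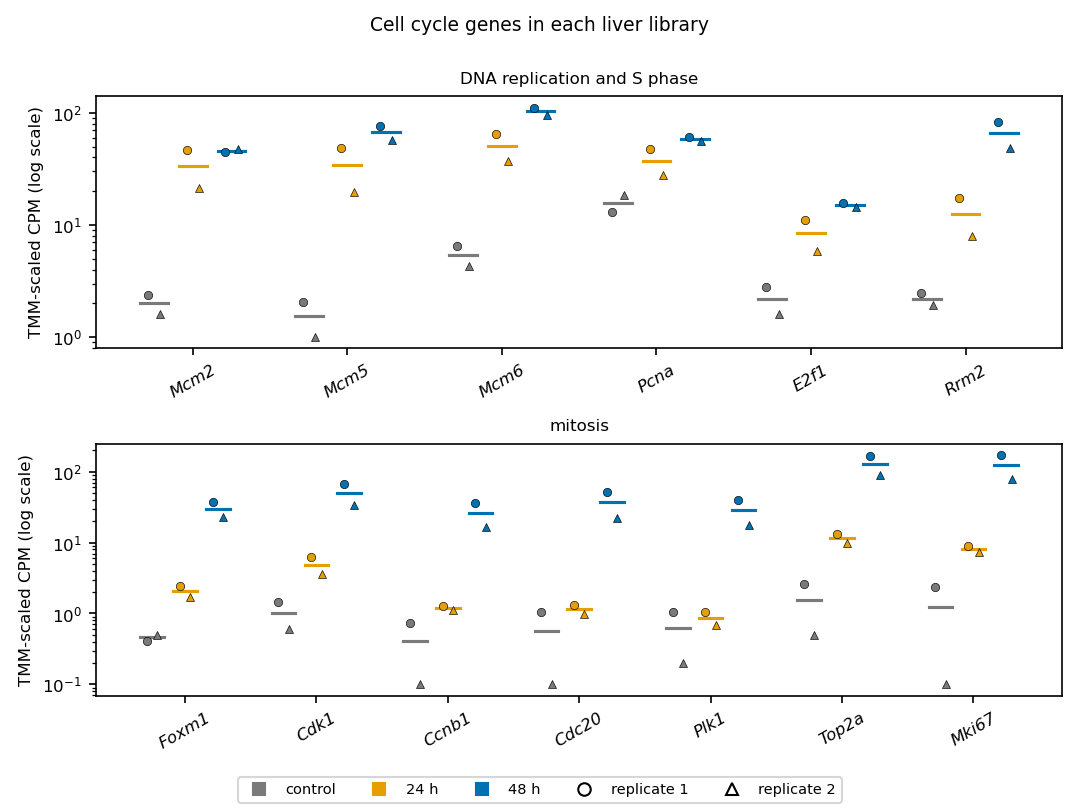
Levels in TMM-scaled CPM (log scale) of replication genes (top) and mitosis genes (bottom) in every liver library, with circles for replicate 1, triangles for replicate 2 and a bar at the group mean. Mcm2, Mcm5 and Mcm6 lie well above control at both times, while Ccnb1, Cdc20 and Plk1 stay near the control range at 24 h and rise to between 16.8 and 51.8 CPM at 48 h.

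Regulators of the G1 to S step moved both ways. Of 16 D cyclin, CDK and CDK inhibitor genes tested, 11 rose and 2 fell, with a median of 1.002. The count of falls was 1 without control replicate 2 or either 48 h replicate. Cyclin D1 (Ccnd1), the cyclin through which growth signals reach the cell cycle, stood at 55.6 and 67.7 CPM in controls and 166 and 178 CPM at 48 h (1.48 ± 0.29, adjusted p = 0.00491), a call lost with all 12 libraries in 1 fit (adjusted p = 0.183). Cdkn2c, an inhibitor of CDK4 and CDK6, rose by 2.63 ± 0.41, with 3.32 and 2.12 CPM in controls, 3.33 and 2.35 CPM at 24 h and 22.2 and 11.5 CPM at 48 h. Among the pocket proteins, Rbl1 (p107) rose by 3.03 ± 0.39 and Rbl2 (p130), the form of resting cells, fell by 1.18 ± 0.15. The other gene that fell was Cdkn1b (p27, -0.40 ± 0.13), whose sign turned with library totals alone (0.32). Its call was also lost without 24 h replicate 1 and with RLE or upper-quartile factors (adjusted p = 0.0585 and 0.208). It was lost too with DESeq2, a minimum count of 50 or the replicate block (adjusted p = 0.149, 0.0647 and 0.0591). The same held with all 12 libraries in 1 fit (adjusted p = 0.304), without the low-count filter and with the control and 48 h libraries alone. By limma it was lost on log2(CPM + 0.5) but kept on log2(CPM + 0.1) (adjusted p = 0.0501 and 0.0497).

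Of 26 p53 target genes, 14 rose and 4 fell, with a median of 0.72. Mdm2, which feeds back on p53, stood at 26.9 and 28.2 CPM in controls and 68.2 and 52.2 CPM at 48 h (1.13 ± 0.15, adjusted p = 0.00106). Bax, a pore-forming death effector, rose by 1.29 ± 0.16, Pmaip1 (Noxa), a BH3-only death gene, by 4.13 ± 0.30, and the death receptor gene Tnfrsf10b by 4.32 ± 0.35. Bbc3 (Puma, -1.60 ± 0.27), Ei24 (-0.89 ± 0.18), Xpc (-0.48 ± 0.13) and the death receptor gene Fas (-1.07 ± 0.22) fell; the call on Xpc was lost without either 48 h replicate and its sign turned with library totals alone (0.24). With library totals alone 21 rose and 1 fell, the calls on Ei24 and Fas being lost (adjusted p = 0.455 and 0.217), that on Fas also with all 12 libraries in 1 fit (adjusted p = 0.0960). The cell cycle inhibitor gene Cdkn1a (p21) stood at 81.9 and 96.02 CPM against 47.5 and 61.9 CPM (0.70 ± 0.16, adjusted p = 0.0103), but its call was lost without control replicate 1 or 48 h replicate 2 (adjusted p = 0.0543 and 0.0699).

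Pericentral genes of hepatocytes fell nearly throughout. Of 24 pericentral genes, 20 fell and 1 rose, with a median of -2.67. The exception, Cyp2a5 (0.64 ± 0.19), lost its call without control replicate 1 or 2 or 48 h replicate 2. Cyp2e1, the main enzyme that activates thioacetamide (ENSMUSG00000025479, chromosome 7, positions 140763739 to 140774987 on GRCm38, plus strand, protein-coding), stood at 4244 and 6513 CPM in controls, 212 and 252 CPM at 24 h and 89.2 and 111 CPM at 48 h (-5.75 ± 0.29, adjusted p = 6.4e-05). The groups lay far apart, at a 53.8-fold lower mean. Oat, ornithine aminotransferase of the innermost cells, stood at 150.01 and 290.01 CPM in controls and 47.5 and 46.5 CPM at 48 h. Glutamine synthetase (Glul), of the same cells, fell by 2.21 ± 0.32, or -1.62 on the log2 scale without control replicate 2, and Cyp27a1 fell by 3.93 ± 0.23. Rgn (regucalcin), a calcium-binding protein, went from 1483 and 1342 CPM in controls to 119.8 and 124 CPM.

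Periportal genes had a smaller median fall, with 15 of 21 lower, Cdh1 (E-cadherin, 0.76 ± 0.22) higher and a median of -1.25. The call on Cdh1 was lost without control replicate 2 or 48 h replicate 2. Otc, a urea cycle enzyme, stood at 704 and 718 CPM in controls and 62.05 and 60.5 CPM at 48 h (-3.54 ± 0.19, adjusted p = 7.1e-05). Pigr, which carries antibodies into bile, fell by 3.57 ± 0.16. Cps1, the entry enzyme of the urea cycle, did not pass at -0.50 ± 0.23 (adjusted p = 0.106), its levels of 6859 and 8367 CPM in controls and 4520.0 and 6250.4 CPM at 48 h did not overlap, and its sign turned with library totals alone (0.22). The periportal and pericentral lists were not tested against each other.

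Of 52 cytochrome P450 and flavin monooxygenase genes tested, 39 fell and 1, again Cyp2a5, rose, with a median of -2.10. Cyp2c38, of a family of near-identical genes whose reads are uncertain, stood at 189.9 and 269.9 CPM in controls and 2.65 and 2.42 CPM at 48 h (-6.50 ± 0.24, adjusted p = 4.7e-05). Fmo1, a flavin monooxygenase that also oxidises thioacetamide, stood at 558 and 523 CPM in controls, 167 and 168 CPM at 24 h and 270.00 and 226 CPM at 48 h (-1.12 ± 0.15, adjusted p = 0.000885). Both genes were lower in each 48 h library than in any control. Of 19 genes that are higher in female than male mouse liver, 16 fell (median -3.33), and of 15 male-biased genes tested 11 fell (median -1.85; 7 without 48 h replicate 2). Sult3a1, a sulfotransferase of female liver, went from 1301 and 709 CPM in controls to 17.2 and 12.5 CPM at 48 h (-6.09 ± 0.78, adjusted p = 0.000855).

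Bile acid genes were mostly lower, with 14 of 19 fallen, 2 risen and a median of -2.11. The canalicular pump gene Abcb11 stood at 802 and 758 CPM in controls and 169 and 148 CPM at 48 h (-2.30 ± 0.15, adjusted p = 0.000114). Slc10a1, the uptake carrier at the blood side, fell by 2.52 ± 0.27, and Baat, which joins bile acids to amino acids, by 2.57 ± 0.14. Nr0b2 (SHP), the repressor that bile acids induce, fell by 2.11 ± 0.16. The export pump gene Abcc4 went the other way, from 3.42 and 2.32 CPM in controls to 17.6 and 15.6 CPM, and the other gene that rose was the multidrug pump gene Abcb1a (0.999 ± 0.35). The call on Abcb1a was lost without control replicate 1, 48 h replicate 1 or either 24 h replicate, and its change was 1.61 without control replicate 2. Cyp7a1, the rate-limiting enzyme of bile acid synthesis, had overlapping groups, at 63.1 and 22.1 CPM in controls and 18.1 and 31.1 CPM at 48 h.

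Secreted proteins and regulators of hepatocyte identity fell as well. Of 29 identity genes, 23 fell and none rose, with a median of -0.96; scaled by library totals alone, 5 rose and 11 fell, beside 57.8% and 7.35% of all genes. Cebpa, a factor of differentiated hepatocytes, stood at 359.9 and 346 CPM in controls and 123 and 131 CPM at 48 h (-1.48 ± 0.13, adjusted p = 0.000229). Hnf4a, another such factor, stood at 672 and 1069.5 CPM in controls and 473 and 488 CPM at 48 h (-0.86 ± 0.23, adjusted p = 0.0194). Its call was lost without control replicate 2 or either 48 h replicate. It was also lost with library totals alone (-0.13, adjusted p = 0.620) and with all 12 libraries in 1 fit (adjusted p = 0.102). Apoe, a lipoprotein protein among the 10 most abundant transcripts of both groups, fell by 1.62 ± 0.18. Of 30 complement and coagulation genes, 27 fell and none rose, with a median of -1.43, and with library totals alone 16 fell and 3 rose. F12, a clotting factor, stood at 814 and 760.02 CPM in controls and 217 and 217 CPM at 48 h. F7 fell by 1.77 ± 0.14, F9 by 1.59 ± 0.14 and the mannose-binding lectin gene Mbl2 by 1.90 ± 0.27.

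Fetal liver genes rose against this background. Alpha-fetoprotein (Afp), a fetal blood protein silenced after birth (ENSMUSG00000054932, chromosome 5, positions 90490737 to 90508907, plus strand, protein-coding), stood at 1.45 and 1.21 CPM in controls, 554 and 357 CPM at 24 h and 453 and 1005 CPM at 48 h (9.09 ± 0.56, adjusted p = 0.000103; 8.40 without 48 h replicate 2). Every treated library lay far above the controls, and the 24 h and 48 h ranges overlapped. Of 7 fetal genes tested of 12, 5 rose, or 3 without control replicate 1 or 2 or 48 h replicate 2. The proteoglycan gene Gpc3 rose by 5.06 ± 0.63 (5.81 without control replicate 1 and 4.34 without 48 h replicate 1), and Plagl1 by 2.13 ± 0.53 and H19 by 3.48 ± 1.19. Bex2, which also rose, had 1 count over both controls and a level 32.6 times as high at 48 h, with a counting interval from 5.57 to 1318. The calls on Plagl1 and H19 were lost without control replicate 1 or 2 or 48 h replicate 2 (adjusted p from 0.0578 to 0.172). Igf2, the fetal growth factor, did not pass at 48 h, with 0.311 and 1.01 CPM in controls, 163 and 13.8 CPM at 24 h and 7.797 and 2.48 CPM at 48 h, and 62.8% of its exon length is shared with another gene on the same strand.

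Cholesterol synthesis genes were lower at 48 h than in controls, and lower than at 24 h. Of 24 genes of the pathway, 23 fell at 48 h with a median of -1.49 (13 with library totals alone). At 24 h, when 21.4% of all genes were higher and 20.8% lower than in the same controls (42.3% in all), 2 were higher, 3 lower and the median was 0.45. Hmgcs1, the synthase of the first committed steps, stood at 774 and 437 CPM in controls, 892 and 599 CPM at 24 h and 102 and 142 CPM at 48 h (-2.31 ± 0.34, adjusted p = 0.00140). The 48 h libraries lay below all 4 others. Tm7sf2, a sterol reductase, fell by 2.56 ± 0.17 and Ebp, a sterol isomerase, by 1.45 ± 0.13.

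The sterol regulatory element, through which SREBP factors raise these genes when sterol is low, is shown in the promoter of Hmgcs1, 200 bases up to the start (GRCm38.p6, chr13:119690151-119690350, plus strand), with the match in capitals.
Hmgcs1: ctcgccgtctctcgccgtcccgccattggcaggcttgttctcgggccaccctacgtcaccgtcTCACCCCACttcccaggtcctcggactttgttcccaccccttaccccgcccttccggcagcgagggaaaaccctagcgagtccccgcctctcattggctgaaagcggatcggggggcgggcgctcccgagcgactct
The searched letters, TCACNCCAC on either strand, were found in 1 of 19 cholesterol promoters (5.26%), from 16 of the 24 genes, and in 1.05% of all 32851.

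Fatty acid genes followed in part. Of 22 genes of fatty acid synthesis and lipid droplets tested, 13 fell and 3 rose (median -1.23), and of 21 of fatty acid oxidation 17 fell and none rose, or 1 without 48 h replicate 2 (median -1.07). With library totals alone 2 rose and 7 fell in the oxidation list (median -0.34). Fatty acid synthase (Fasn) stood at 1069 and 592 CPM in controls and 109 and 136 CPM at 48 h (-2.76 ± 0.32, adjusted p = 0.000602), and the carboxylase gene Acacb fell by 3.12 ± 0.13. Both were lower in each 48 h library than in any control. The genes that rose were Fabp4, a fatty acid carrier of macrophages and fat cells, at 4.22 ± 0.32, the droplet gene Cidec at 3.81 ± 0.45 and the uptake receptor gene Cd36 at 2.47 ± 0.22. On the oxidation side, Ppara, the fasting regulator, fell by 1.55 ± 0.28, and its targets Acadm by 1.35 ± 0.18 and Ehhadh by 2.13 ± 0.28.

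**Figure D4:**
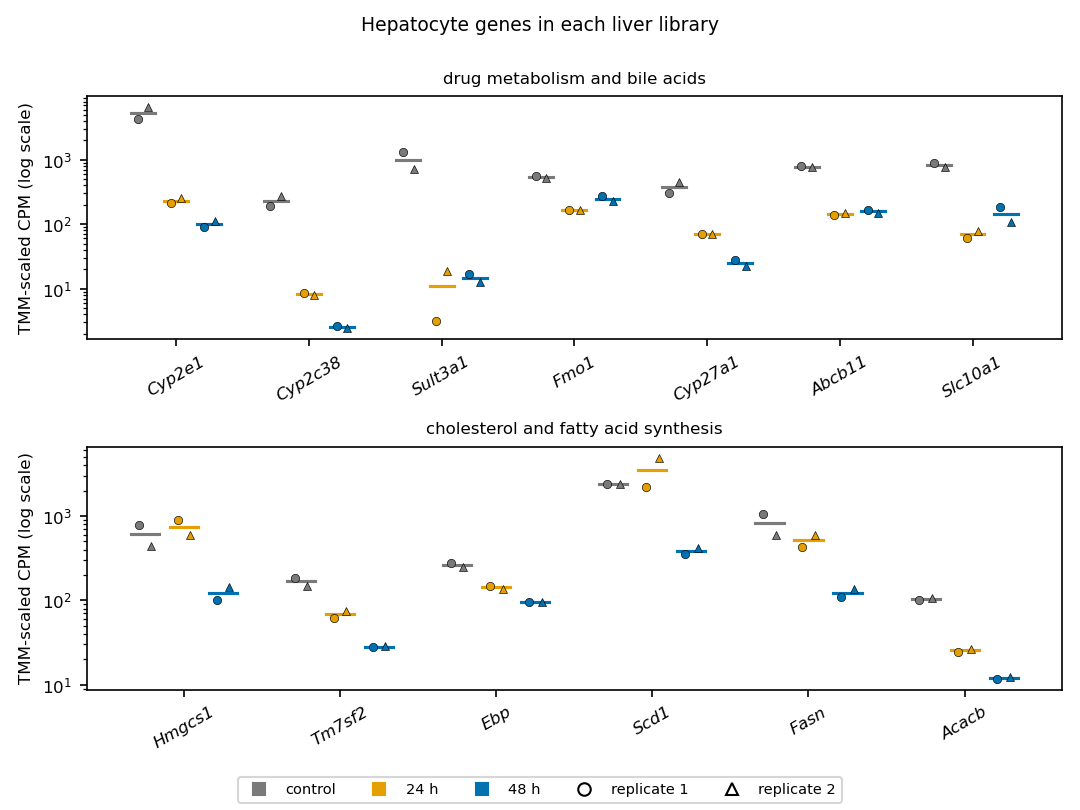
Levels in TMM-scaled CPM (log scale) of genes of drug metabolism and bile acids (top) and of cholesterol and fatty acid synthesis (bottom) in every liver library, with circles for replicate 1, triangles for replicate 2 and a bar at the group mean. The top genes are low at both times, whereas Hmgcs1 and Scd1 are low at 48 h alone.

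Of 24 glucose genes, 10 rose and 6 fell (median 0.18). With library totals alone 16 rose and 2 fell (median 0.90), beside 57.8% and 7.35% of all genes. Isozymes of other tissues were among those that rose. Pkm, the pyruvate kinase of growing cells and macrophages, stood at 9.23 and 5.65 CPM in controls and 166 and 170.2 CPM at 48 h (4.50 ± 0.24, adjusted p = 7.1e-05), while the liver form Pklr stood at 338 and 207 and 65.4 and 69.9 CPM (-2.01 ± 0.27, adjusted p = 0.000961). Hk3, the hexokinase of myeloid cells, rose by 3.96 ± 0.22. Aldoa rose by 1.38 ± 0.15 and Pfkp by 2.78 ± 0.39. The call on Pklr was lost with all 12 libraries in 1 fit (adjusted p = 0.0785).

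Of 22 NRF2 antioxidant genes tested, 9 rose and 5 fell (median 0.11), the falls being Gclm, Gsta4, Gstm1, Gstm3 and Osgin1, of which Osgin1 lost its call without control replicate 2 or 48 h replicate 2 and Gstm3 without control replicate 1 or 48 h replicate 2. Scaled by library totals alone, 15 rose and 1 fell, beside 57.8% and 7.35% of all genes. Haem oxygenase (Hmox1) stood at 20.02 and 15.5 CPM in controls and 110.1 and 132 CPM at 48 h (2.77 ± 0.18, adjusted p = 0.000114), and Srxn1, which repairs peroxiredoxins, rose by 1.38 ± 0.22. Nqo1, a much used NRF2 target, had overlapping groups, at 10.3 and 6.66 CPM in controls and 7.55 and 5.77 CPM at 48 h, and no call. Of 23 endoplasmic reticulum stress genes, 3 rose (Ddit3, Trib3 and Ppp1r15a) and 8 fell (median -0.42, and 0.31 with library totals alone). Scaled by library totals alone, 7 rose and none fell, beside the same 57.8% and 7.35% of all genes. The falls numbered 4 without control replicate 2 or 48 h replicate 2 and 2 without 48 h replicate 1. Ppp1r15a, which ends the translation block, rose by 1.17 ± 0.16. The change of Ddit3 was 1.52 ± 0.41, or 2.15 without control replicate 2, and its call was lost without control replicate 1 or 48 h replicate 2 (adjusted p = 0.0835 and 0.0935) and that on Trib3 without 48 h replicate 1 (adjusted p = 0.0545).

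Among 14 genes of metal handling, Mt1 and Tfrc rose and Hamp, Hamp2, Slc30a10 and Slc30a1 fell (Slc30a1 turning to 0.12 with library totals alone; list median -0.054, and 0.12 and 0.67 with upper-quartile factors and library totals alone). The call on Hamp was lost with library totals alone and with all 12 libraries in 1 fit (adjusted p = 0.287 and 0.464). That on Slc30a10 was lost with all 12 libraries in 1 fit (adjusted p = 0.128). Tfrc, the transferrin receptor, stood at 34.96 and 44.9 CPM in controls and 67.8 and 86.2 CPM at 48 h (0.95 ± 0.17, adjusted p = 0.00361). Hamp2, a copy of the hepcidin gene, fell from 77.8 and 226 CPM to 1.08 and 2.08 CPM (-6.54 ± 0.61, adjusted p = 0.000274), or by 7.16 and 5.63 without control replicates 1 and 2 in turn. The call on Mt1, a metallothionein, was lost without control replicate 2, 48 h replicate 2 or 24 h replicate 2 (adjusted p = 0.167, 0.180 and 0.0557).

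Of 26 acute phase genes, 7 rose and 8 fell (median -0.18, and 0.54 with library totals alone), against 15 and 3 at 24 h. With library totals alone 13 rose and 2 fell at 48 h, beside 57.8% and 7.35% of all genes. Saa3, a serum amyloid gene active in macrophages too, stood at 5.498 and 3.13 CPM in controls, 470.1 and 433 CPM at 24 h and 54.5 and 70.5 CPM at 48 h (3.86 ± 0.27, adjusted p = 0.000133). The 48 h libraries lay between the other groups. Lipocalin 2 (Lcn2), an iron-sequestering defence protein, stood at 33.7 and 13.3 CPM in controls and 1096 and 998 CPM at 48 h (5.48 ± 0.48, adjusted p = 0.000239; 6.25 without control replicate 1). Cd14, the endotoxin co-receptor, rose by 3.99 ± 0.18. Saa1, the main liver form, had overlapping groups at 48 h, at 49.6 and 215 CPM in controls and 231 and 203 CPM, and the Saa genes are near-identical, so their reads are uncertain.

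Macrophage genes were among the largest rises. Of 28 genes of recruited and phagocytic macrophages tested, 24 rose and none fell, or 1 without control replicate 1, with a median of 4.15. Gpnmb, a glycoprotein of phagocytes that clear debris (ENSMUSG00000029816, chromosome 6, positions 49036546 to 49070929, plus strand, protein-coding), stood at 0.104 and 0.303 CPM in controls, 10.3 and 5.88 CPM at 24 h and 144 and 137 CPM at 48 h (9.35 ± 0.42, adjusted p = 4.7e-05; 10.23 without control replicate 2). It had the largest rise of the genes named by size, which needed at least 4 counts over the lower group. Its control levels lay at or below the floor of 3 counts a library, so the size of the rise is uncertain. By limma on log2(CPM + 0.5) its change was 7.66, below the 8.53 of Afp. Trem2, a lipid receptor of such cells, had 3 counts over both controls, and its level at 48 h, 21.2 and 16.5 CPM, was 121 times as high, with a counting interval from 41.3 to 591. Galectin-3 (Lgals3) stood at 1.04 and 1.21 CPM in controls and 139 and 101 CPM at 48 h (6.72 ± 0.44, adjusted p = 0.000114). The lysosomal marker gene Cd68 went from 5.08 and 4.03 CPM to 75.9 and 77.9 CPM and lysozyme (Lyz2) from 12.97 and 7.66 CPM to 238 and 187 CPM. In each of these genes the 24 h libraries lay between the controls and the 48 h libraries. Summed, the list took 905 and 668 RPM in controls and 3960.4 and 3285 at 48 h.

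Genes of resident Kupffer cells rose as well, 11 of 14 tested with a median of 2.37. Emr1 (F4/80), a pan-macrophage receptor, stood at 9.44 and 6.15 CPM in controls, 14.4 and 13.6 CPM at 24 h and 63.2 and 40.5 CPM at 48 h (2.73 ± 0.28, adjusted p = 0.000371). C1qa, a complement gene of macrophages, rose by 2.44 ± 0.34. Clec4f, a lectin gene of Kupffer cells, stood at 178 and 88.04 CPM at 48 h (1.58 ± 0.39, adjusted p = 0.0128), a call lost without control replicate 2 or 48 h replicate 1 (adjusted p = 0.0700 and 0.0644).

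Of 22 chemokine and receptor genes tested, 17 rose and 2 fell (Ccl9 at -0.84 ± 0.26 and Cxcl12 at -1.17 ± 0.14), with a median of 3.81 and the call on Ccl9 lost without control replicate 1 or 48 h replicate 2. The call on Ccl9 was also lost with library totals alone (adjusted p = 0.719), and that on Cxcl12 with all 12 libraries in 1 fit (adjusted p = 0.0925). Ccl6, a monocyte attractant, stood at 2.801 and 1.71 CPM in controls and 174 and 95.1 CPM at 48 h (5.89 ± 0.48, adjusted p = 0.000192). Cxcl2, a neutrophil attractant, rose by 4.80 ± 0.20, to 42.5 and 38.05 CPM. Of 26 interferon response genes, 21 rose and none fell (median 2.22). Irf7, which amplifies interferon output, rose by 2.11 ± 0.26, and Oasl2, an antiviral gene, by 4.84 ± 0.35. Cxcl10, an interferon-driven T cell attractant, stood at 3.63 and 3.33 CPM in controls, 110.5 and 145 CPM at 24 h and 28.5 and 31.3 CPM at 48 h (3.10 ± 0.20, adjusted p = 0.000112). Of 17 antigen presentation genes tested, 7 rose and B2m fell. Without control replicate 2 fewer rose and more fell, and without 48 h replicate 1 fewer rose. The call on B2m was lost with library totals alone and with all 12 libraries in 1 fit (adjusted p = 0.0709 and 0.0904).

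Other blood cells contributed few reads. Of 13 neutrophil genes, 5 could be tested and all rose, or 3 without control replicate 1 or 2, yet the list summed to 14.2 and 16.7 RPM at 48 h and Ly6g had no read in any of the 6 libraries. The neutrophil list summed to 0.62 and 0.15 RPM in controls, so its members could reach the test only through treated libraries. That all 5 rose therefore follows largely from the filter. S100a9, a neutrophil cytosolic protein, had no count in the controls and 28 counts at 48 h, at least 6.77-fold higher against a floor of 3 counts over both controls. Of 5 lymphocyte genes tested of 21, Cd3e and Cd4 rose. The call on Cd4 was lost without control replicate 2 or 48 h replicate 1, and that on Cd3e without any 1 of the 6 libraries other than 48 h replicate 1. The haemoglobin gene Hba-a1 had at most 15 counts in a library, and neither red cell gene that could be tested passed. The platelet list summed to 15.5 and 15.9 RPM at 48 h and the mesothelial list to 21.5 and 33.3.

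Stellate cell and matrix genes rose nearly throughout, 34 of 36, with a median of 3.32. Type I collagen (Col1a1), the main fibrillar collagen of scar, stood at 3.22 and 1.01 CPM in controls, 30.5 and 33.8 CPM at 24 h and 223 and 371 CPM at 48 h (7.13 ± 0.47, adjusted p = 0.000117; 8.14 and 6.48 without control replicates 1 and 2). Type III collagen (Col3a1) stood at 19.2 and 11.4, 106 and 102 and 442 and 722 CPM in the same order (5.25 ± 0.35, adjusted p = 0.000118). The groups of both collagens lay apart, in the order control, 24 h, 48 h. Smooth muscle actin (Acta2), the marker of activated stellate cells, rose by 4.02 ± 0.26 to 43.1 and 58.6 CPM, and the receptor gene Pdgfrb by 3.001 ± 0.24. The basement membrane collagen gene Col4a1 rose by 3.54 ± 0.26 and vimentin (Vim), a filament of mesenchymal cells, by 5.44 ± 0.23. Thbs1, a matrix activator of TGF-beta, rose by 5.31 ± 0.25, its 48 h levels of 49.2 and 56.97 CPM lying below the 24 h levels of 81.5 and 68.1 CPM.

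Of 30 endothelial genes, 26 rose and none fell, with a median of 1.53. The adhesion gene Vcam1 stood at 5.29 and 4.74 CPM in controls and 85.6 and 84.6 CPM at 48 h (4.08 ± 0.15, adjusted p = 4.7e-05). Pecam1, a general endothelial marker, rose by 1.58 ± 0.28, Stab1, a scavenger receptor, by 2.05 ± 0.16, and Vwf, a clotting protein of larger vessels, by 2.31 ± 0.37. The sinusoidal receptor gene Stab2, at 75.1 and 57.1 CPM, and the Wnt ligand gene Wnt2, which sustains pericentral genes, did not pass. Of 19 biliary and progenitor genes tested, 8 rose and 1 fell, with a median of 1.16; none fell without either control replicate or 48 h replicate 1. Krt8 and Krt18, the keratins of hepatocytes and ducts alike, rose by 1.89 ± 0.23 and 1.95 ± 0.18, while the duct keratin gene Krt19 did not pass, at 2.697 and 6.86 CPM in controls and 7.797 and 12.5 CPM at 48 h.

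Cytoskeleton genes rose widely, 29 of 37 with none lower and a median of 1.88. Filamin A (Flna), an actin crosslinker, stood at 13.1 and 13.9 CPM in controls and 156 and 169 CPM at 48 h (3.59 ± 0.18, adjusted p = 5.9e-05), Tmsb10, an actin-binding peptide, rose by 4.19 ± 0.24, and the tubulin gene Tubb6 by 2.43 ± 0.23. Of 15 annexin and S100 genes, 8 rose and S100a1 fell (-1.35 ± 0.14), with a median of 0.84 and 2 falls without control replicate 2. Annexin A2 (Anxa2), a membrane-binding protein (ENSMUSG00000032231, chromosome 9, positions 69453620 to 69491795, plus strand, protein-coding), stood at 6.33 and 5.45 CPM in controls, 183 and 196 CPM at 24 h and 323 and 320.01 CPM at 48 h (5.77 ± 0.17, adjusted p = 3.6e-05). Its partner family gene S100a6 stood at 0.830 and 0.504, 5.099 and 6.71 and 49.9 and 60.5 CPM in the same order (6.36 ± 0.28, adjusted p = 4.7e-05). The replicates of each group lay close together in both genes.

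YAP/TAZ target genes rose in part. Of 22 tested, 12 rose, Nt5e fell (-1.16 ± 0.18) and 9 did not pass, with a median of 1.75, and 2 fell without 48 h replicate 2. The call on Nt5e was lost with all 12 libraries in 1 fit and with library totals alone (adjusted p = 0.201 and 0.0670), which gave 18 genes that rose and none that fell. Ctgf, a secreted matrix protein and the most used target (ENSMUSG00000019997, chromosome 10, positions 24595442 to 24598683, plus strand, protein-coding, 23.2% of its exon length shared with an antisense transcript), stood at 3.73 and 2.62 CPM in controls, 33.99 and 22.96 CPM at 24 h and 71.3 and 72.9 CPM at 48 h (4.50 ± 0.26, adjusted p = 7.8e-05). Its relative Cyr61 stood at 81.2 and 81.8 CPM in controls and 81.6 and 149 CPM at 48 h and did not pass (adjusted p = 0.149), the lower 48 h library lying within the control range. Ankrd1, an ankyrin repeat protein, went from 0.726 and 0.706 CPM to 13.1 and 8.92 CPM (3.92 ± 0.34, adjusted p = 0.000237), and the receptor kinase gene Axl rose by 3.11 ± 0.26. The membrane repair gene Myof stood at 1.56 and 1.82 CPM in controls, 16.7 and 12.5 CPM at 24 h and 86.6 and 78.4 CPM at 48 h (5.60 ± 0.22, adjusted p = 4.7e-05). Igfbp3, a carrier of insulin-like growth factors, stood at 11.4 and 9.98, 10.9 and 10.7 and 40.8 and 53.95 CPM in the same order (2.15 ± 0.18, adjusted p = 0.000211). Several of these targets, Ctgf and Axl among them, are also expressed by stellate cells and macrophages, whose lists rose in the same libraries. The stellate list summed to 3009 and 3024 RPM in controls and 8364 and 10167 at 48 h, with Lox and Mmp13 at 0 in at least 1 library, and the macrophage list to 905 and 668 RPM and 3960.4 and 3285, with Chil3, Mmp12 and Ms4a7 at 0 in at least 1. The part of those cells in the result was not tested.

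The TEAD motif is shown in the Ankrd1 promoter, 200 bases up to the start (GRCm38.p6, chr19:36119845-36120044, minus strand), because YAP and TAZ reach DNA through TEAD factors; capitals mark GGAATG.
Ankrd1: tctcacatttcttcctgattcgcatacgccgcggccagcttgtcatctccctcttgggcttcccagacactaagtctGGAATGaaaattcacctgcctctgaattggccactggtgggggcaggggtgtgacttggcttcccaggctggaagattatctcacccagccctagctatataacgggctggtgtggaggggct
On either strand of the 250 bases, it was found in 38.9% of 18 YAP/TAZ target promoters, from 16 of 23 genes, and in 12.6% of all 32851. The 200 bases before the start of Myof and of Axl, which also rose, held no match.

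Of 24 Hippo pathway components, 11 rose, or 7 without 48 h replicate 1, and 3 fell (Tead3, Mob1b and Vgll4, the call on Tead3 being lost without 48 h replicate 2), with a median of 0.44. Scaled by library totals alone, 21 rose and none fell, the calls on Tead3, Mob1b and Vgll4 being lost (adjusted p = 0.491, 0.958 and 0.215). Yap1 stood at 87.9 and 97.4 CPM in controls and 88.7 and 82.8 CPM at 48 h, overlapping groups (-0.11 ± 0.13, adjusted p = 0.498) whose sign turned with upper-quartile factors and library totals alone (0.061 and 0.61). Wwtr1, the gene of TAZ, stood at 17.4 and 16.8 CPM and 28.04 and 35.3 CPM (0.89 ± 0.15, adjusted p = 0.00299). The kinase gene Map4k4 rose by 1.55 ± 0.19 and the scaffold gene Frmd6 by 1.21 ± 0.18.

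**Figure D5:**
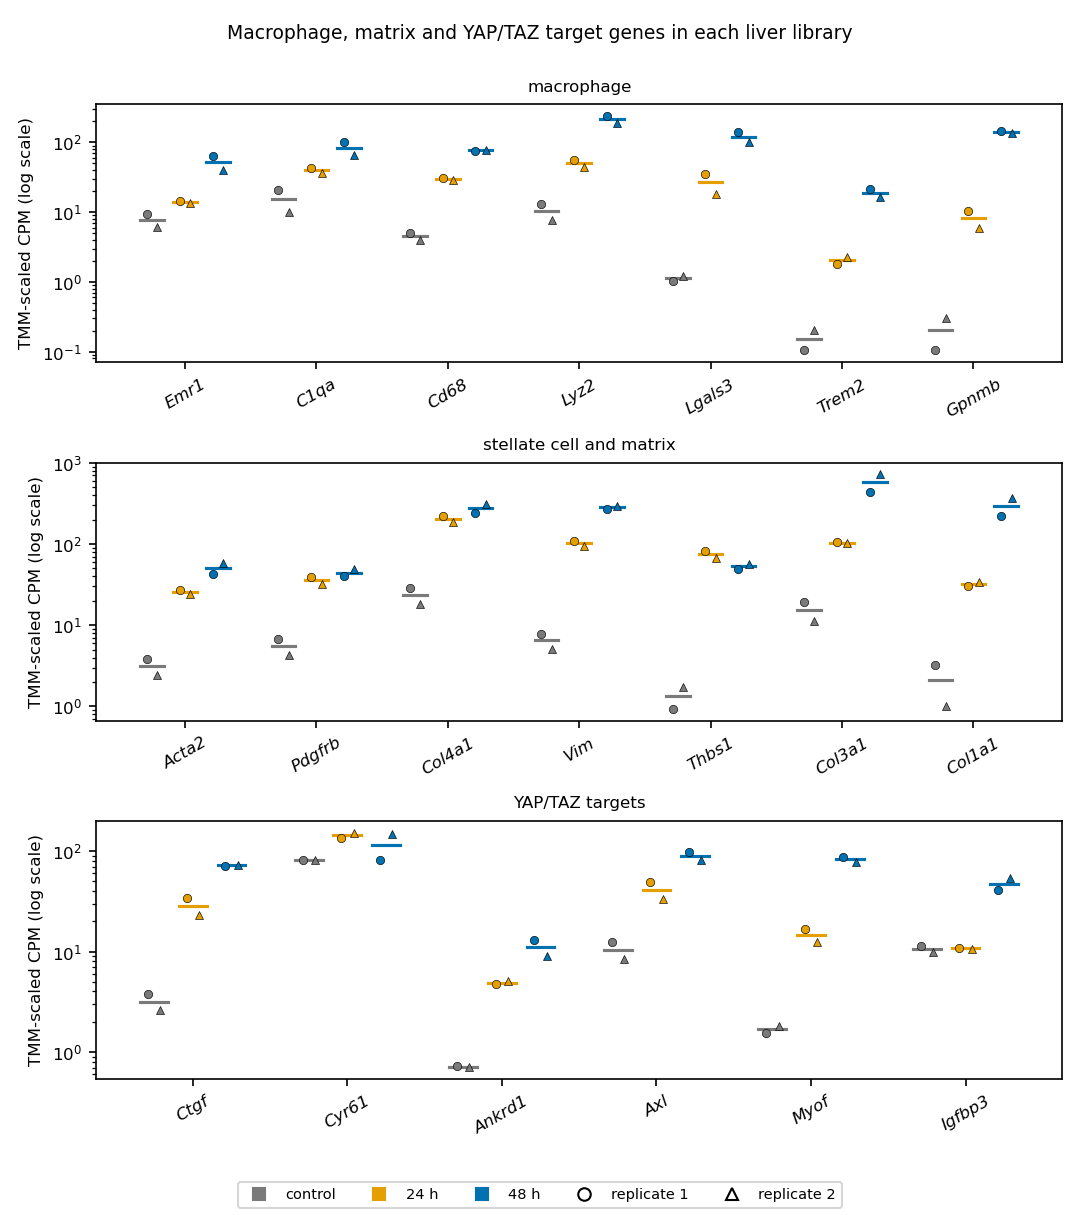
Levels in TMM-scaled CPM (log scale) of macrophage genes (top), stellate cell and matrix genes (middle) and YAP/TAZ targets (bottom) in every liver library, with circles for replicate 1, triangles for replicate 2 and a bar at the group mean. Most climb from control through 24 h to 48 h, Igfbp3 rises after 24 h, Thbs1 is highest at 24 h, and the 48 h points of Cyr61 reach down to the control level.

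Growth signals moved both ways, with 15 of 29 growth factor, cytokine and receptor genes risen and 9 fallen (median 1.09). Hepatocyte growth factor (Hgf), a mitogen made by stellate and endothelial cells, stood at 4.25 and 5.85 CPM in controls and 26.9 and 36.1 CPM at 48 h (2.64 ± 0.22, adjusted p = 0.000216). Tnfrsf12a, the receptor of the mitogen TWEAK, rose by 3.07 ± 0.21, the oncostatin receptor gene Osmr by 2.82 ± 0.26 and the cytokine gene Il1b by 2.97 ± 0.27. The growth hormone receptor gene Ghr stood at 690.4 and 746 CPM in controls and 186 and 237 CPM at 48 h (-1.76 ± 0.23, adjusted p = 0.000868). Of 20 TGF-beta and activin genes, 12 rose and 3 fell (Inhbc, Inhbe and Smad7), with a median of 0.88 and a rise of 2.56 ± 0.15 for the receptor gene Tgfbr2. The sign of Inhbe turned with library totals alone (0.030), and its call was lost without 48 h replicate 2 (adjusted p = 0.0913). With library totals alone 16 rose and none fell, and the calls on Inhbc and Smad7 were lost there (adjusted p = 0.469 and 0.494) and, with that on Inhbe, with all 12 libraries in 1 fit (adjusted p = 0.196, 0.0823 and 0.412).

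Of 19 immediate early genes, 9 rose and none fell, or 2 without control replicate 2 (median 0.41); Klf6 and Ier3, early response genes, rose by 2.89 ± 0.23 and 3.34 ± 0.25. Of 18 MYC and ribosome biogenesis genes, 8 rose, or 4 without 48 h replicate 1 or 2, and none fell, or 1 without control replicate 2 (median 0.51); Nop56, of the RNA-modifying snoRNP, rose by 1.10 ± 0.20. Of 17 clock genes, 7 fell and 1 rose (Bhlhe41, 3.14 ± 0.73, 4.02 without control replicate 2 and lost without control replicate 1 or 48 h replicate 1), with a median of -0.20, or 0.52 with library totals alone; hours of collection are not in the labels.

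Between 24 h and 48 h the tests set the treated livers directly against each other, without the controls: 740 genes (5.5%) were higher and 383 (2.85%) lower at 48 h, together 8.35%. Mitosis genes stood out by count, 54 of 55 higher at 48 h with a median difference of 3.61, while 11 of 47 replication genes were higher. Foxm1 differed by 3.84 ± 0.32, adjusted p = 0.00441, and Rrm2 by 2.38 ± 0.38, adjusted p = 0.0172, while Mcm6 did not pass at 1.03 ± 0.26, adjusted p = 0.0569. Cholesterol synthesis went the other way, with 22 of 24 genes lower at 48 h than at 24 h and a median of -1.76; Hmgcs1 differed by -2.61 ± 0.34, adjusted p = 0.00942. Acute phase genes were lower too, 13 of 26, with Saa3 at -2.85 ± 0.23, adjusted p = 0.00441 and the chemokine gene Cxcl10 at -2.09 ± 0.16, adjusted p = 0.00441.

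Macrophage, matrix and YAP/TAZ target genes were higher at 48 h than at 24 h in 15 of 28, 16 of 36 and 6 of 22, with none lower. Gpnmb differed by 4.12 ± 0.26, adjusted p = 0.00307, Trem2 by 3.21 ± 0.26, adjusted p = 0.00441 and Cd68 by 1.36 ± 0.13, adjusted p = 0.00599. S100a6 differed by 3.22 ± 0.20, adjusted p = 0.00307, Igfbp3 by 2.13 ± 0.18, adjusted p = 0.00441 and Myof by 2.50 ± 0.17, adjusted p = 0.00354. No endothelial gene was higher at 48 h than at 24 h, and Sele and Icam1, adhesion genes of activated endothelium, were lower (-2.22 ± 0.27 and -1.02 ± 0.15). Of pericentral genes none was higher and 5 were lower, among them Cyp2e1 (-1.21 ± 0.24, adjusted p = 0.0307). These counts rest on few libraries: 1123 genes differed with all 6 libraries, but 60 without 24 h replicate 2, 96 without 24 h replicate 1, 136 without 48 h replicate 1 and 353 without 48 h replicate 2.

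Changes were ranked by size only for genes that passed, reached a mean of 10 CPM and had 4 or more counts over the lower group. Ranked genes also had to have no overlap between control and 48 h libraries, so their lack of overlap is not a finding. Names of predicted genes, Rik genes, pseudogenes and clones were left out of the ranking. Chil3, with a fitted change of 11.23, was outside this ranking. The largest ranked rises at 48 h were, after Gpnmb, those of Afp and the macrophage elastase gene Mmp12, followed by Col1a1. Mmp12 rose by 8.38 ± 0.65, or 7.34 without control replicate 2. Control replicate 2 itself had no count of Mmp12, so without replicate 1 no control count is left. The mitosis gene Ube2c (6.90 ± 0.58), the plasminogen activator gene Plat (6.82 ± 0.69) and Adam8, a myeloid protease (6.37 ± 0.48), were also among the 15 largest rises. The largest falls were those of Hamp2 and Cyp2c38, then Cyp3a16, a female-biased cytochrome of another near-identical family, at -6.40 ± 0.90 (-8.40 and -5.49 without 48 h replicates 1 and 2). Serpina6, the carrier of corticosteroids in blood, stood at 493 and 359 CPM in controls and 9.29 and 6.91 CPM at 48 h (-5.72 ± 0.26, adjusted p = 4.7e-05), and Cyp2e1 and Sult3a1 were among the 15 largest falls. The largest rises thus held macrophage, matrix and mitosis genes, and the largest falls enzymes and secreted proteins of hepatocytes.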

How the data were processed

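RNA sequencing libraries of mouse liver were compared, 2 at 48 h after thioacetamide, 2 at 24 h and 2 controls, grouped by their titles. The authors deposited raw read counts per gene, which carry no normalization. STAR, DESeq2 and the build mm10 (GRCm38) are named in the submitters' processing notes without versions; for the annotation and strand setting of counting, the sources used here give nothing. Overlapping and antisense genes are therefore uncertain. A second deposited table, of normalized values, was not used. Gene IDs matched GENCODE M21 for 97.9% of rows. After 58 pancreatic acinar genes were left out, edgeR 4.0.16 (R 4.3.3) was fitted to all 6 liver libraries with TMM factors, filterByExpr (minimum count 10, minimum total 15), a prior count of 0.125 and the quasi-likelihood F test, with Benjamini-Hochberg adjusted p under 0.05; a standard error is the change divided by the root of F. In 5 simulated data sets of this comparison on 13457 genes, 200 genes were changed, in random directions. The test found 39.4% of 2-fold and 82.6% of 4-fold changes, 8.55% of its calls were false and 0 had the wrong sign. The simulated libraries had no differences in scaling factor. In the data 49.7% of genes passed and TMM factors ran from 0.746 to 1.26, so these rates may not hold for them. Alternatives were other scaling factors, filters, DESeq2 1.42.0, limma 3.58.1 and a cut at 2-fold on called changes, without a new test. Others were other sets of libraries, a replicate block, acinar genes kept and each library left out. Named genes were list anchors, the 2 members of each list with the smallest p, the 15 largest rises and falls at a mean of at least 10 CPM and 4 counts in the lower group, the 10 most abundant genes of each group and the 10 with the smallest p between 48 h and 24 h; anchors that repeat another member were left out, and some named genes are not reported here. The ranked rises and falls also had to pass and to have no overlap between the groups, and names of predicted genes, Rik genes, pseudogenes and clones were left out. Members and lists were chosen with earlier results of these data known. Intervals and floors (3 counts) cover counting error only. Promoters came from RefSeq, 250 bases searched.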

Additional observations from a re-analysis of the deposited data

Results flagged for a closer look

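For 9 genes reported here the effect of thioacetamide differed between 24 h and 48 h by the direct edgeR test. They are among the 10 with the smallest p in that contrast of the genes named by the anchors, the lists and size. The values are log2 differences of 48 h minus 24 h. Those of macrophages were higher at 48 h, Gpnmb by 4.12, Trem2 by 3.21 and Cd68 by 1.36. Of the genes listed as YAP/TAZ targets or S100 proteins, Myof was higher by 2.50, Igfbp3 by 2.13 and S100a6 by 3.22, and the mitosis regulator Foxm1 was higher by 3.84. The other 2 were lower at 48 h, with -2.85 for the acute phase gene Saa3 and -2.09 for the interferon-driven chemokine gene Cxcl10. In all 9, both 48 h libraries lay on the same side of both 24 h libraries. Genes chosen by their p in this same contrast would mostly show this, so it adds no support. Time after injection and the 2 libraries sampled at each time cannot be told apart. Groups of 2 libraries are too small to look for a library far from its group.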

How the results depend on the processing

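Against 3400 higher and 3285 lower genes at 48 h, scaling by library totals alone gave 7778 and 989. All 12 libraries in 1 fit gave 1639 lower, and a cut at 2-fold on called changes, without a new test, left 1497 lower. Leaving out 1 library gave 2547 to 3163 higher and 2120 to 3260 lower. Genes that differed between 48 h and 24 h numbered 1123, and 1819 with library totals alone, 2223 with no filter on low counts, 98 with all 12 libraries, 740 with limma on log2(CPM + 0.1) and 60 to 1420 with 1 library left out. The cause of these moves was not tested. Same-numbered libraries did not deviate together in every pair of groups (correlations of deviations 0.02, 0.15 and 0.03), so numbers only name libraries; with a replicate block the counts were 3363 higher and 3160 lower. Of the 181 genes named, 153 stayed on the same side of the threshold and in the same direction with library totals alone, 152 with all 12 libraries, 179 with DESeq2 and 178 with limma on log2(CPM + 0.5). Signs turned with library totals alone for Cps1 (0.22), Nqo1 (0.37), Yap1 (0.61), Inhbe (0.030), Cdkn1b (0.32), Xpc (0.24) and Slc30a1 (0.12). That of Yap1 also turned with upper-quartile factors (0.061), and those of Cyp7a1 and Saa1 without control replicate 1; with 1 library left out Cyp7a1 ranged from -1.40 to 0.12 and Saa1 from -0.034 to 2.08. The pseudocount of limma and the prior count of edgeR shrink changes of genes with a handful of control counts. Depth also limits such genes, since 3 counts correspond to between 0.201 and 0.311 CPM.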
